A study of Saccharomyces cerevisiae with 4 samples.

Results

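The genes described here are 47 genes of meiotic entry, recombination, synapsis, chromosome segregation and spore formation in budding yeast (Saccharomyces cerevisiae). They were chosen by systematic name from 7445 features of the deposited count table, of which 6372 could be tested. RNA was sequenced from 2 libraries of a strain in which TRF4 was replaced by the HphMX4 cassette (trf4 deletion) and from 2 libraries of the wild type. Both strains had the W303 background and were in exponential growth at 25 °C in YPDA, a rich glucose medium, when harvested at an optical density of 0.8. Total RNA was depleted of ribosomal RNA before library preparation. The labels give no mating type, ploidy or batch, and do not say whether the libraries of a group came from separate cultures or clones. The p-values below therefore measure only the spread between these libraries.

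The product of TRF4 adds short poly(A) tails to nuclear transcripts as part of TRAMP, a complex that hands them to the exosome for trimming or decay. Meiosis and spore formation belong to the life of starved a/α diploid cells, and their genes are kept at low levels in growing cells. Early genes carry the element URS1, at which Ume6 holds the Sin3 and Rpd3 corepressors until the activator Ime1 is made. Middle genes carry the middle sporulation element (MSE), which is bound by the repressor Sum1 in growth and by the activator Ndt80 in meiosis. The comparison asked how far these genes rose without TRF4, and how that compared with features of equal abundance.

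Promoter windows were read from the R64 genome, which is the sacCer3 sequence named in the submitters' processing notes, as 250 bases before and 50 bases from the first base of each coding region. The URS1 core was searched as GGCGGC and the MSE core as CACAAA, each on both strands. The URS1 core lay in 15 of 47 windows (31.9%), against 5.13% of 6001 nuclear protein-coding genes, and the MSE core in 21 of 47 (44.7%), against 18.8%. Of 28 genes with roles before spore formation, 14 held the URS1 core and 5 the MSE core. Of 19 genes of the prospore membrane and spore wall, 1 held the URS1 core and 16 the MSE core. A match describes letters only and does not show that a factor was bound. Variant letters and sites outside the window were not searched, so a gene without a match may still hold the element.

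The pieces printed next have 40 bases, run 5′ to 3′ on the strand of the gene, and show the cores in capitals. They were taken from the 4 genes with the highest and the 4 with the lowest log2 fold change among those with a URS1 core, so that the core can be compared between genes that rose and genes not called higher. The letters are those of the reference strain and may differ in W303.
REC104, chrVIII:412799-412838, plus strand: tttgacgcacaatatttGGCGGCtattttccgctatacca
MEK1, chrXV:996623-996662, minus strand: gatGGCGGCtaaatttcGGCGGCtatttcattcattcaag
MER1, chrXIV:250804-250843, plus strand: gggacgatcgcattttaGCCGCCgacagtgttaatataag
MEI4, chrV:239848-239887, minus strand: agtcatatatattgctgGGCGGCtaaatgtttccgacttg
IME4, chrVII:141997-142036, plus strand: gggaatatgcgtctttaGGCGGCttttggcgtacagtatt
SPO22, chrIX:226056-226095, minus strand: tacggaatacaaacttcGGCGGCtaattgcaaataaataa
ZIP1, chrIV:1032399-1032438, plus strand: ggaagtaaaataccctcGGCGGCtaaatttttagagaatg
SPO16, chrVIII:402748-402787, minus strand: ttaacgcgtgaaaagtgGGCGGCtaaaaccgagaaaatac

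The same selection among genes with an MSE core before the coding region is given next. The core reads CACAAA, or TTTGTG where it lies on the other strand.
SPO77, chrXII:807218-807257, plus strand: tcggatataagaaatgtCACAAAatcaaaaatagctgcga
GAS4, chrXV:71174-71213, plus strand: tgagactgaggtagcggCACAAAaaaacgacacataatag
SPS2, chrIV:1485311-1485350, minus strand: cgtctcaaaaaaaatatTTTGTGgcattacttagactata
SPO20, chrXIII:307444-307483, plus strand: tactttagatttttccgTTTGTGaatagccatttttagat
SPO74, chrVII:185492-185531, minus strand: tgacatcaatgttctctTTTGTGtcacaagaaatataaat
SSP1, chrVIII:472632-472671, plus strand: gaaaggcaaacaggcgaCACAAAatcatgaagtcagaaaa
SPO1, chrXIV:609551-609590, plus strand: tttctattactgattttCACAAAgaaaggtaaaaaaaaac
SPS4, chrXV:903042-903081, minus strand: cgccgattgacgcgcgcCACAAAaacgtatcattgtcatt

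SMK1 (YPR054W), a meiotic MAP kinase gene, was the only member with both cores, and its whole window is shown for that reason. The URS1 core began 151 bases and the MSE core 79 bases before the coding region.
SMK1, chrXVI:666030-666329, plus strand: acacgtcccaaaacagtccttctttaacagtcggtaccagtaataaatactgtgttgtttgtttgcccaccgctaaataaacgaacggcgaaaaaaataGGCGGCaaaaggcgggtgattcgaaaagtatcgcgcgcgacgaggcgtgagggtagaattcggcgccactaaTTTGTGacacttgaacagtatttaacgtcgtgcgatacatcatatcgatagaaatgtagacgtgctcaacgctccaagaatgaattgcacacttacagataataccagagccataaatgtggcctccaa

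Library totals ranged from 53516242 to 57964567 counts. TRF4 (YOL115W, listed as PAP2) had 21 and 40 counts in the trf4 deletion libraries and 8102 and 8468 in the wild type, as labelled. Levels are given as CPM, the counts per 1000000 counts after TMM scaling of the library sizes, and 3 counts corresponded to 0.0498 to 0.0589 CPM. The 6 a-specific mating genes summed to 938 and 1034 CPM in the trf4 deletion and 1382 and 1417 CPM in the wild type. The 4 α-specific genes summed to 42.1 and 48.1 CPM against 28.3 and 31.2 CPM, and the 5 haploid-specific genes, all detected in every library, to 484 and 473 CPM against 633 and 633 CPM. Of the a-specific genes 5 were called lower, and of the α-specific genes 2 higher (STE3 at 2.22 and SAG1 at 0.50 on the log2 scale). Of the haploid-specific genes 2 were called lower (GPA1 at -0.73 and STE4 at -0.60) and 1 higher (RME1 at 0.27). The part of these lists in the results below was not tested.

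Most of the 47 genes were higher without TRF4. In the quasi-likelihood test of edgeR, with p-values adjusted over all features by the Benjamini-Hochberg method here and below, 35 were called higher at an adjusted p under 0.05, 3 lower and 9 neither, and 25 of those higher were at least 2-fold higher. Over all features tested, 31.3% were called higher, 28.9% lower, and 15.5% higher by at least 2-fold. The median log2 fold change was 1.15 for the 47 genes, with quartiles of 0.36 and 1.80, against 0.01 for all features tested. With scaling by library size alone the medians were 1.47 and 0.34. The groups did not overlap for 43 of the 47 genes, against 81.9% of all features tested, and overlapped for IME4, MSH5, SPO74 and SSP2. In bulk RNA, more cells that express a gene and more RNA per cell cannot be told apart.

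The genes were low but not absent in growing wild-type cells. Every one passed the filter on low counts, and the fewest counts of any in a wild-type library were 32, for AMA1. Per kilobase of coding length, the wild-type level had a median of 4.15 CPM and ranged from 0.368 for AMA1 to 25.5 for REC107, against a median of 45.7 over 5988 nuclear protein-coding genes. Of the 47 genes, 45 lay below the first quartile of those genes (18.1 CPM per kilobase), IME4 and REC107 being the exceptions. In the trf4 deletion the median was 7.74 CPM per kilobase, 42 genes lay below the first quartile of all genes in that strain, which was higher (23.0 CPM per kilobase), and 0 lay above their median. Together the 47 genes took 0.0422% and 0.0440% of the counts in the wild type and 0.0796% and 0.0859% in the trf4 deletion.

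**Figure D1:**
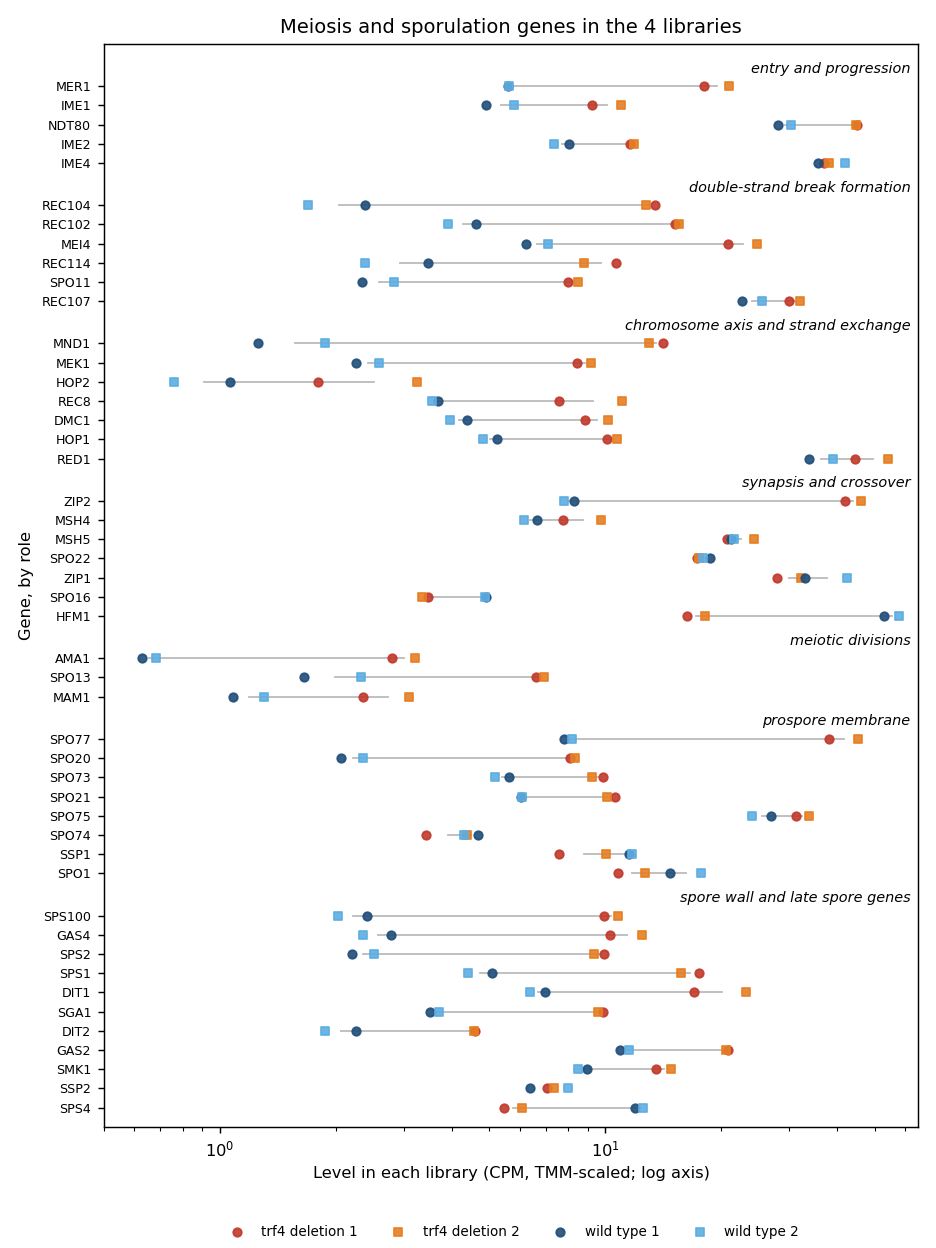
Level of each of the 47 genes in each of the 4 libraries, in CPM on a log axis, grouped by role and ordered within a role by log2 fold change. The grey line joins the means of the 2 groups; the trf4 deletion libraries (red and orange) lie to the right of the wild-type libraries (blue) for most genes, and both lie to the left for HFM1, SPS4, SPO1, SPO16, ZIP1, SSP1 and SPO22, of which the first 3 were called lower.

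Low features as a whole were higher in the trf4 deletion, so each gene was set beside features of equal abundance. All features tested were ranked by mean CPM over the 4 libraries and divided into 20 groups of 318 or 319, and the median of those that are no members was taken in each. The 47 genes fell in the second to the ninth group from below, where that median ranged from 1.08 to -0.03. A gene's log2 fold change minus that median is called its gap. The gap was above 0 for 34 genes and below 0 for 13, with a median of 0.40 and quartiles of -0.08 and 1.13. At the median, a gene lay above 66.8% of the features in its group, 6 genes lay above more than 90% and 5 below more than 90%. By construction about 10% of the features of a group lie in each of these tails, so 6 and 5 of 47 were near that share. The comparison depended on how equal abundance was defined. The median gap was 0.15 when nuclear genes were grouped by level per coding length, 0.28 when only nuclear genes annotated in RefSeq were compared, and 0.31 when groups were formed on the wild-type level. Without the second trf4 deletion library it was 0.28. Gaps of single genes and of roles below use the groups of mean CPM over the 4 libraries, which include the trf4 deletion values. They are not given under the other definitions.

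**Figure D2:**
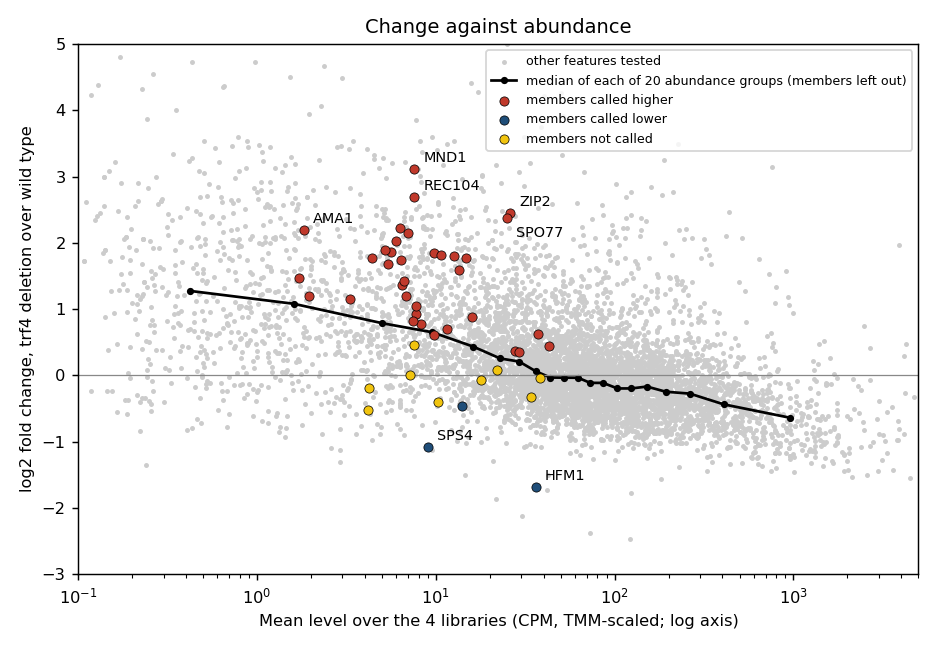
Log2 fold change of trf4 deletion over wild type against mean CPM over the 4 libraries (log axis), for the 47 genes (coloured by call) and the other features tested (grey; 15 of 6325 lie outside the axes). The black line joins the medians of the 20 abundance groups, which fall from left to right; MND1, REC104, ZIP2 and SPO77 stand well above it and HFM1 and SPS4 well below.

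Of the 5 genes that set meiotic entry and progression, 4 were called higher. IME1 (YJR094C, chromosome X), the master activator of entry, had 557 and 663 counts in the trf4 deletion and 250 and 298 in the wild type. The groups did not overlap, at 10.1 ± 1.25 CPM (SD, n = 2) against 5.36 ± 0.634 CPM (SD, n = 2), a log2 fold change of 0.92 (SE 0.19, adjusted p = 0.00385). IME2 (YJL106W), a meiosis-specific kinase, had 699 and 714 counts against 411 and 379, a log2 fold change of 0.60 (SE 0.15, adjusted p = 0.0105). Its gap was -0.05, so it changed about as much as other features of its abundance, and its adjusted p was 0.0905 without the second wild-type library. NDT80 (YHR124W), the activator of the middle genes, was among the most abundant members, with 2717 and 2686 counts against 1430 and 1557. It rose by 0.62 on the log2 scale (SE 0.10, adjusted p = 0.0013), with a gap of 0.56. MER1 (YNL210W), a splicing factor for meiotic transcripts, rose most in this role, from 285 and 288 counts to 1087 and 1258. Its log2 fold change was 1.80 (SE 0.15, adjusted p = 7.08e-05). IME4 (YGL192W), an mRNA N6-adenosine methyltransferase, had 2223 and 2289 counts against 1811 and 2147, and its groups overlapped. Its log2 fold change was -0.05 (SE 0.11, adjusted p = 0.738), and 0.28 under library size alone.

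All 6 genes for the formation of meiotic double-strand breaks were called higher, with a median log2 fold change of 1.76 and a gap above 0 for each. SPO11 (YHL022C), which makes the breaks, had 482 and 510 counts in the trf4 deletion and 119 and 145 in the wild type, a log2 fold change of 1.67 (SE 0.20). REC104 (YHR157W), a partner of Spo11, had 813 and 768 counts against 121 and 87. This was 13.1 ± 0.519 CPM (SD, n = 2) against 2.04 ± 0.482 CPM (SD, n = 2), a 6.45-fold higher level (adjusted p = 5.61e-05). REC102 (1.85), MEI4 (1.78) and REC114 (1.74), whose products act with Spo11, lay close to each other on the log2 scale. REC107 (YJR021C), also known as MER2 and needed for the same step, changed least. It had 1808 and 1931 counts against 1154 and 1311, a log2 fold change of 0.37 (SE 0.11, adjusted p = 0.0255), and its adjusted p was 0.0889 without the second trf4 deletion library and 0.155 without the first wild-type library.

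All 7 genes of the chromosome axis and of strand exchange were called higher as well, with a median of 1.37. MND1 (YGL183C, chrVII:156543-157285, minus strand, 1 intron), whose product acts with Hop2 to assist the recombinase Dmc1, had the largest change of the 47 genes. It had 849 and 783 counts in the trf4 deletion against 64 and 96 in the wild type. This was 13.6 ± 0.765 CPM (SD, n = 2) against 1.56 ± 0.434 CPM (SD, n = 2), an 8.66-fold higher level (log2 fold change 3.11, SE 0.23, adjusted p = 4.12e-05). MND1 lay above 97.0% of the features in its abundance group. Its partner HOP2 (YGL033W) had 108 and 195 counts against 54 and 39, with libraries of the trf4 deletion far apart. HOP2 had a log2 fold change of 1.47 (SE 0.38, adjusted p = 0.011), and the call was lost without the second trf4 deletion library (adjusted p = 0.0526) or the second wild-type library (0.0783). DMC1 (YER179W) had 535 and 610 counts against 223 and 203, a log2 fold change of 1.19. MEK1 (1.86), a checkpoint kinase of meiotic recombination, REC8 (1.37), the meiotic cohesin subunit, and HOP1 (1.05), an axis protein, lay between. RED1 (YLR263W), the other axis component, was lowest at 0.44 (SE 0.13, adjusted p = 0.0197), with 2681 and 3267 counts against 1721 and 1997. Its adjusted p was 0.108 without the second trf4 deletion library and 0.107 without the first wild-type library.

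The 7 genes of synapsis and crossover formation spanned the widest range of log2 fold changes of the roles, from -1.69 to 2.45. ZIP2 (YGL249W) was called higher, HFM1 (YGL251C) lower, and the other 5 neither, and the median was -0.07. ZIP2 (chrVII:33098-35212, plus strand), which helps to start the synaptonemal complex, had 2530 and 2777 counts in the trf4 deletion against 423 and 402. Its level was 44.1 ± 2.93 CPM (SD, n = 2) against 8.07 ± 0.335 CPM (SD, n = 2), 5.46-fold higher (adjusted p = 1.07e-05). HFM1 (chrVII:27921-31636, minus strand, 1 intron), also known as MER3 and encoding a DNA helicase of the crossover pathway, had 984 and 1090 counts against 2697 and 2971. Its level was 17.2 ± 1.26 CPM (SD, n = 2) against 55.4 ± 3.48 CPM (SD, n = 2), 3.22-fold lower (log2 fold change -1.69, SE 0.11, adjusted p = 2.73e-05). HFM1 lay below all 314 other features of its abundance group. In the wild type HFM1 was thus counted more than ZIP2, and in the trf4 deletion less.

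SPO16 (YHR153C), which acts with Zip2 and Spo22, had 209 and 201 counts against 250 and 251, with groups that did not overlap in CPM. Its log2 fold change was -0.52 (SE 0.20, adjusted p = 0.0556), just outside the threshold, and its gap was -1.31. It passed with size factors of the DESeq2 type in edgeR, at an adjusted p of 0.0495. ZIP1, the central element of the synaptonemal complex, had a log2 fold change of -0.33, SPO22 (also ZIP4) of -0.07, and the MutS homologues MSH4 and MSH5 of 0.46 and 0.08, with adjusted p between 0.0659 and 0.611. Without the first wild-type library ZIP1 was called lower (-0.49, adjusted p = 0.0302), and without the first trf4 deletion library MSH4 was called higher (0.61, adjusted p = 0.0268). Under library size alone MSH4 and MSH5 were called higher (0.78 and 0.40) and SPO22 was at 0.25. The gap was below 0 for each of these 7 genes but ZIP2.

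The 3 genes of the meiotic divisions were called higher. AMA1 (YGR225W), a meiotic activator of the anaphase-promoting complex, was the member with the lowest level, with 168 and 193 counts against 32 and 35. It was 4.56-fold higher in the trf4 deletion (log2 fold change 2.19, SE 0.28, adjusted p = 0.00045). SPO13 (YHR014W), a regulator of the first division, rose from 84 and 119 counts to 399 and 417 (log2 fold change 1.77, SE 0.24). MAM1 (YER106W), a monopolin subunit, had 142 and 186 counts against 55 and 67, a log2 fold change of 1.19 (SE 0.29, adjusted p = 0.00841), with a gap of 0.11. Its adjusted p was 0.0727 without the first wild-type library.

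**Figure D3:**
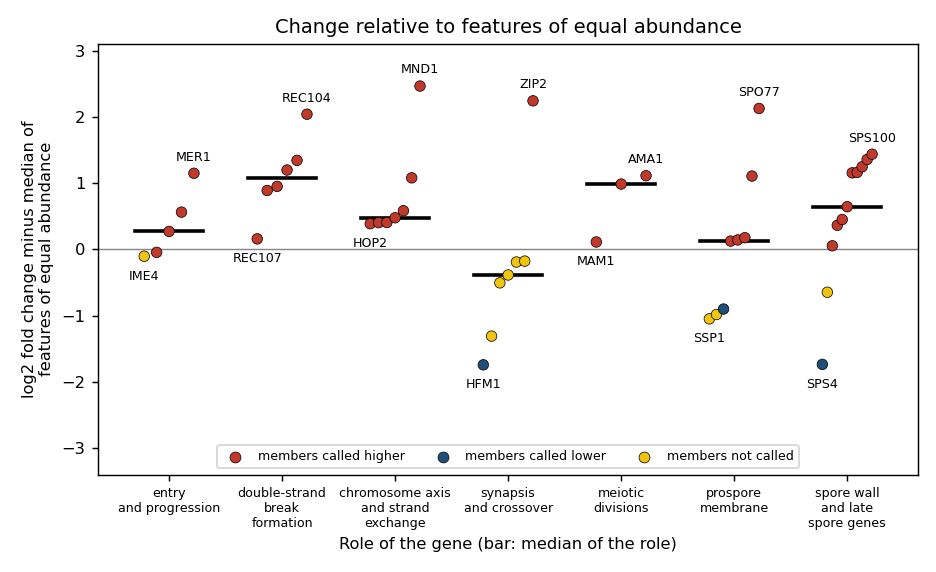
Log2 fold change of each gene minus the median of features of equal abundance, by role, coloured by call, with a bar at the median of each role. The medians are 1.07 for double-strand break formation and -0.39 for synapsis and crossover, where ZIP2 alone lies above 0. The highest and lowest gene of each role are named. Abundance is the mean CPM over the 4 libraries, and gaps by role under other definitions are not shown.

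Among 8 genes of the prospore membrane, which encloses each new spore, 5 were called higher, 1 lower and 2 neither, with a median of 0.56. SPO77 (YLR341W), which is needed for closure of that membrane and for the spore wall, stood apart with 2294 and 2723 counts in the trf4 deletion against 398 and 420. Its level was 41.7 ± 5.07 CPM (SD, n = 2) against 8.00 ± 0.26 CPM (SD, n = 2), 5.21-fold higher (adjusted p = 1.64e-05). SPO20 (YMR017W), a SNARE of prospore membrane fusion, was 3.71-fold higher. SPO73, SPO21 and SPO75, with log2 fold changes of 0.82, 0.77 and 0.35, were called with gaps between 0.12 and 0.18. For SPO75 the adjusted p was 0.103 without the second trf4 deletion library, and 0.171 where wild-type library 2 was left out. SPO1 (YNL012W), a gene for a protein similar to phospholipase B, had 649 and 763 counts against 748 and 912. It was called lower, at -0.47 (SE 0.16, adjusted p = 0.0344). That call was lost under library size alone (-0.15), without the first trf4 deletion library (-0.36) and on leaving out wild-type library 2 (-0.32). SSP1, a leading-edge component, was at -0.40 and SPO74, a component of the meiotic spindle pole outer plaque, at -0.20, and SSP1 (adjusted p = 0.0872) was called lower at the threshold of 0.05 without the second trf4 deletion library (-0.62, adjusted p = 0.018). SPO74 was at 0.12 under library size alone.

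Of the 11 genes of the spore wall and late spore formation, 9 were called higher and 1 lower, with a median of 1.43. SPS100 (YHR139C), a late spore wall gene, had 598 and 650 counts against 123 and 104, a 4.66-fold higher level (log2 fold change 2.22, SE 0.20, adjusted p = 9.41e-05). GAS4 (YOL132W), a glucanosyltransferase of the spore wall, had 618 and 750 counts against 142 and 121, a log2 fold change of 2.14 (SE 0.20, adjusted p = 0.00012). Its relative GAS2 was at 0.88. SPS2 (YDR522C) had 597 and 564 counts against 112 and 129, a log2 fold change of 2.03 (SE 0.20, adjusted p = 0.000124). The neighbouring kinase gene SPS1 was at 1.81. DIT1 and DIT2, which make the dityrosine of the outer spore wall from adjacent divergent genes, were at 1.59 and 1.15. The sporulation glucoamylase gene SGA1 was at 1.43 and SMK1 at 0.70, the latter with a gap of 0.05. SSP2, whose product activates Smk1, was at 0.00 (SE 0.19), its sign varying between fits. SPS4 (YOR313C), a sporulation-specific gene, went the other way, with 328 and 365 counts in the trf4 deletion against 609 and 643. It was 2.13-fold lower (log2 fold change -1.09, SE 0.16, adjusted p = 0.000855) and lay above 0.329% of the features in its abundance group.

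Genes that rose and genes that did not were found both with and without the promoter cores as searched here. Of 15 genes with the URS1 core, 11 were called higher and 0 lower (median log2 fold change 1.37), whereas the 32 genes lacking it included 24 called higher and 3 called lower (median 0.90). The URS1 genes not called were IME4, SPO22, ZIP1 and SPO16. ZIP1 (-0.33) and MEK1 (1.86) thus both carried it, as did SPO16 (-0.52) and MEI4 (1.78). Of 21 genes with the MSE core, 15 were called higher and 2 lower, with a median of 0.77, against 20 and 1 of 26 without it, with a median of 1.53. Both of the MSE genes called lower, SPS4 and SPO1, served in spore formation. Among genes that are no members, 130 of 283 tested with the URS1 core were called higher and 63 lower, with a median of 0.28. Of the 5510 without it, 1619 were called higher and 1751 lower, with a median of -0.03. For the MSE core, 358 of 1084 with it were called higher and 306 lower, against 1391 and 1508 of 4709 without it. These medians and counts are descriptions, and the groups also differ in role and abundance. RNA of the genes for the factors at these elements was counted too, whereas their proteins and binding were not measured. UME6 was at -0.32 (adjusted p = 0.047) and RPD3 at -0.36 (adjusted p = 0.00772), both called lower, while SIN3 at -0.12 and SUM1 at -0.15 were not called. Scaling to library size alone moved the median of all features from 0.01 to 0.34. The values of UME6 and RPD3 were close in size to that move, and those of SIN3 and SUM1 were smaller.

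**Figure D4:**
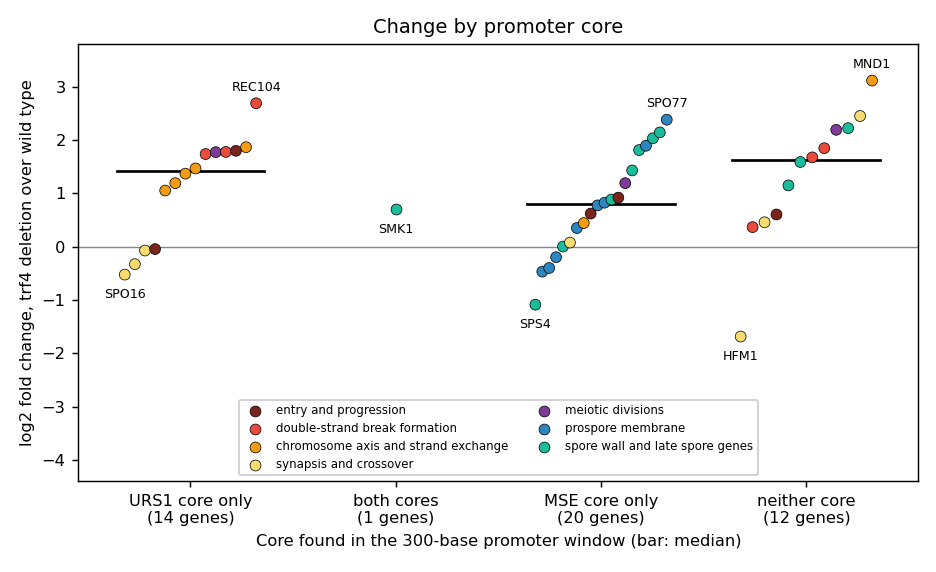
Log2 fold change of the 47 genes by the core found in the promoter window, coloured by role, with a bar at the median of each class. The medians are 1.42 for 14 genes with the URS1 core only, 0.80 for 20 with the MSE core only and 1.63 for 12 with neither; each of these classes holds genes on both sides of 0.

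How strand was used in counting is not stated, so reads from a gene and from RNA on its opposite strand cannot be told apart. RefSeq annotates an RNA overlapping 3 of the 47 genes on the opposite strand, namely RME2 at IME4, RME3 at ZIP2 and SUT169 at SPS100, and these RNAs had no features of their own in the count table. IME4 did not pass the test while ZIP2 and SPS100 rose. Around ZIP2, the tandem genes RMR1 upstream (0.72, adjusted p = 0.0115) and PDE1 downstream (1.47, adjusted p = 5.49e-05) rose with it. BRR6, on the same strand beyond PDE1, was at -0.18 and not called (adjusted p = 0.246). On the other strand, HFM1 was lower, and RTG2 beyond it was at 0.07. REC104 and its divergent neighbour LIN1 were at 2.69 and 2.76, and GAS4 and its tandem downstream neighbour YOL131W at 2.14 and 3.54. SPS4 and its tandem downstream neighbour RPL20B were at -1.09 and -0.98. The neighbours on the other side of REC104, GAS4 and SPS4 were at -0.16 (KEL1), -0.32 (HRT1) and 0.02 (YOR314W). MER1 (1.80) lay between MRX7 (-0.69) and SSB2 (-0.77), both called lower. SPO1, called lower, lay between HEF3 (1.08) and YNL011C (0.79), both called higher. Over 86 pairs of a gene and an adjacent tested gene that is no member, 28 neighbours were called higher and 25 lower, with a median of -0.09. Over all features tested, 31.3% were called higher and 28.9% lower, so these counts were near those shares. The Pearson correlation between gene and neighbour was 0.31 over these pairs, which share libraries and may share an adjacent gene. No value for other adjacent genes is given beside it. Whether neighbouring transcription contributed to any value was not tested.

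**Figure D5:**
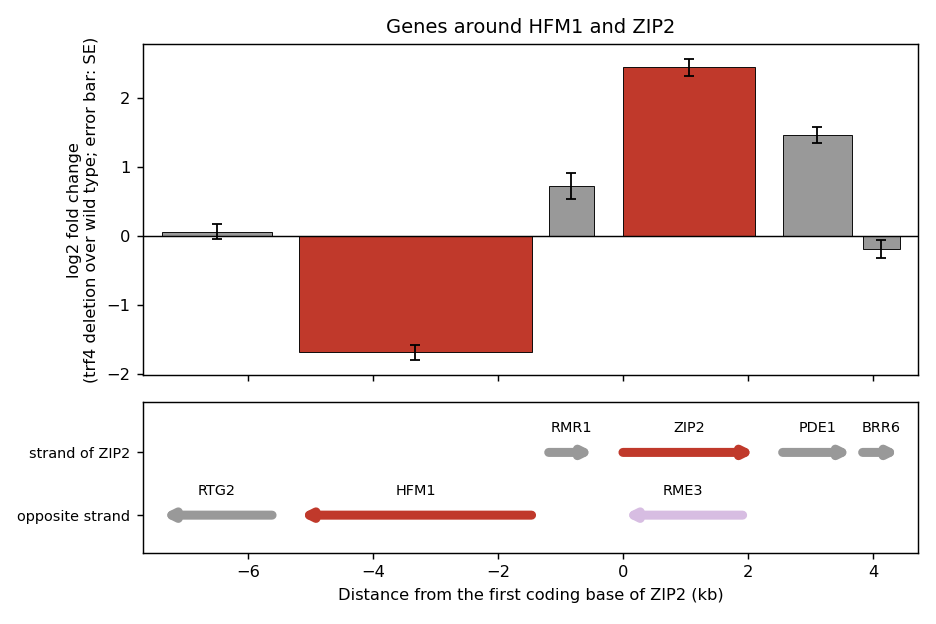
Log2 fold change (bars, with error bars of 1 SE from edgeR) of the genes around HFM1 and ZIP2, against distance in kilobases from the first coding base of ZIP2, above arrows for their extent and strand. RMR1, ZIP2 and PDE1 lie above 0 on the strand of ZIP2, and BRR6 beyond them lies at -0.18. HFM1 lies at -1.69 on the opposite strand, and the antisense RNA RME3 has no value.

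A further 37 meiosis and sporulation genes that are not among the 47 were examined in the same fit. Of these, 27 were called higher, 0 lower and 10 neither, and the median log2 fold change was 1.03. Over all features tested, 31.3% were called higher and 28.9% lower. These 37 genes were not set beside features of equal abundance, and low features as a whole were higher in the trf4 deletion. The septin gene SPR3 of the prospore membrane had 756 and 1057 counts in the trf4 deletion against 64 and 68, a log2 fold change of 3.54 (SE 0.24, adjusted p = 2.8e-05). LDS2, a gene of the spore lipid droplets, was at 2.91 and OSW2, an outer spore wall gene, at 2.53, whereas SPO71 was at -0.04 and ECM11, a synaptonemal complex gene, at -0.23, neither of them called. Of 15 regulators of meiotic entry that are present in growing cells, 4 were called higher, 4 lower and 7 neither, with a median of -0.12. SLZ1, a partner of Ime4 that is itself induced in meiosis, rose by 2.42 on the log2 scale, and RIM15, a kinase that promotes entry, by 0.82. RME1, the haploid repressor of IME1, was at 0.27 (adjusted p = 0.0261).

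The libraries of the trf4 deletion were not equal in these genes. The second was above the first for 35 of the 47, with a median difference of 0.12 on the log2 scale of CPM with 0.1 added, against 0.02 for all features tested. The second wild-type library was above the first for 26 of the 47, with a median difference of 0.02. Relative to the wild-type mean, the median of the 47 genes was 0.93 in the first and 1.11 in the second trf4 deletion library. Without the second, 31 of the 47 genes were called higher and 4 lower, and the median log2 fold change was 0.98.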

How the data were processed

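RNA was sequenced as paired reads of 76 bases from 2 trf4 deletion and 2 wild-type libraries made with the stranded ScriptSeq v2 kit. The file deposited by the authors holds raw counts, in whole numbers and not normalised, with 1 row per feature. The submitters' processing notes name STAR 2.5.3 and sacCer3, without their role. The counting program, its strand setting and its treatment of reads with several positions are not given in the sources used here.

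The 4 libraries entered a quasi-likelihood fit in edgeR 4.0.16 (R 4.3.3), with filterByExpr, TMM scaling, glmQLFit and a two-sided glmQLFTest for the group term. The p-values of the 6372 features tested were adjusted together by the Benjamini-Hochberg method, and features with adjusted p under 0.05 were called. The function was tested on simulated data, in which a small part of the features changed, in both directions, at a fixed dispersion. That setting differs from these data, in which 31.3% of features were called higher and 28.9% lower, so it does not check the scaling. Each SE was obtained from the fold change on the log2 scale and its F statistic (fold change over the root of F). Genome, symbols, coding lengths and neighbours came from RefSeq R64, in which all 47 genes were found. Values per library are given for the 5 regulators of entry, the highest and lowest gene of each role, the 8 largest changes and all genes called lower. Other genes given by counts were added after their values were seen. The 47 genes and the lists were chosen with earlier results of these data known. Alternatives were other scalings and filters, DESeq2 1.42.0, a robust fit, other thresholds, other definitions of equal abundance and leaving out each library. Plots were made in Python 3.11.15 with matplotlib 3.10.9.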

Additional observations from a re-analysis of the deposited data

How the results depend on the processing

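The counts of 35 genes called higher and 3 lower ranged from 31 to 36 and from 2 to 4 when a library was left out, a fit in which the lone library of a group is assumed to vary like the other group, and 6 were lower at an adjusted p under 0.1. The median log2 fold change of the 47 genes was 1.47 under library size alone, which moved the median of all features to 0.34, and ranged from 0.98 to 1.14 without a library. The median gap to features of equal abundance was 0.15 with abundance per coding length and 0.28 with RefSeq nuclear genes only, and ranged from 0.28 to 0.51 without a library. It was above 0 in each of these fits. IME4, not called in any fit, was at 0.28 under library size alone and ranged from -0.15 to 0.082 when a library was left out, above 0 only without the second wild-type library. Scaling from nuclear genes, a minimum of 10 counts and the robust fit changed no call among the 47, and DESeq2 changed none either, though SSP2 fell just below 0 with it (-0.01). No paired analysis was possible because the labels give no replicate numbers shared by the groups.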

Other observations

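The arrangement of the downstream gene was recorded for each of the 47 genes, a description chosen after values were seen. Of 29 genes followed by a gene on the same strand, 25 were called higher, with a median log2 fold change of 1.74 and a median gap to features of equal abundance of 0.95. Of 18 genes with a convergent downstream gene, 10 were called higher, with a median of 0.64 and a median gap of 0.13. Among tested nuclear genes that are no members, 35.3% of 2776 with a tandem downstream gene and 25.4% of 3005 with a convergent one were called higher, with medians of 0.07 and -0.10. The difference was not tested. Of the 47 genes, 11 have an intron, and these had a median of 1.47 against 0.99 for the 36 without. They include both MND1, the largest rise, and HFM1, the largest fall. Spliced and unspliced RNA are not separated in the counts.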
